A study of Mus musculus with 30 samples.

Results

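The genes described here are 10 genes of antigen presentation by major histocompatibility complex (MHC) class I: H2-K1, H2-D1, B2m, Tap1, Tap2, Tapbp, Psmb8, Psmb9, Nlrc5 and Cd274. They were chosen by name, and all 10 were found among the 21938 protein-coding genes on the main mouse chromosomes. CK1750 and Tnm2 are lines of mouse lung adenocarcinoma cells, and each was grown in medium with serum plus either DMSO, the solvent, or 1 µM UNC0638, which inhibits the histone methyltransferases G9a and Glp. CK1750 served the study as a line resembling tumor-propagating cells, and Tnm2 as a line with little Sca-1 of its own. H3K27ac, the acetylation of histone H3 at lysine 27 that accompanies active promoters and enhancers, was mapped by immunoprecipitation, and 1 merged peak list was deposited for each of the 4 groups. The labels give 3 samples for CK1750 DMSO and 2 for each of the other groups. The samples of CK1750 DMSO carry 2 replicate numbers, those of CK1750 UNC0638 carry 1, and those of each Tnm2 group carry 2. With 1 list a group there is no spread between replicates, so no difference below could be tested.

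MHC class I molecules show peptides from inside a cell to cytotoxic T cells. The heavy chain, encoded by H2-K1 or H2-D1 in the mouse, pairs with the light chain encoded by B2m. Peptides are cut by the proteasome, in which Psmb8 and Psmb9 encode catalytic subunits that interferon induces. Tap1 and Tap2 encode the subunits of the transporter that carries peptides into the endoplasmic reticulum, and Tapbp encodes tapasin, which bridges the transporter and empty class I molecules. Nlrc5 encodes the transactivator of class I genes. Cd274 encodes PD-L1, the ligand through which tumor cells restrain T cells. Reduced class I presentation is a known route by which lung tumors evade immunity, and in many cells these genes rise together with interferon.

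A peak list gives the position of each peak and a score, the P value of the peak on a -10 log10 scale. Only peaks with a score of at least 50 were listed. The lists held 27367 peaks for CK1750 DMSO, 24601 for CK1750 UNC0638, 30641 for Tnm2 DMSO and 18794 for Tnm2 UNC0638. Since scores grow with depth, which is unknown, levels were compared only as ranks within a list. A promoter peak was any peak within 2.5 kb of a GENCODE start site of the gene. The gene-level rank is the percentile of a gene's highest promoter score among the protein-coding genes, with genes lacking a promoter peak tied at 25, 25.4, 25.3 and 29.4 for CK1750 (DMSO, then UNC0638) and for Tnm2 (DMSO, then UNC0638), the order kept below. A second rank, the percentile of a gene's highest promoter peak among all peaks of its list, is given beside it, since the 2 ranks can differ in direction. The second rank also depends on how many peaks the list holds.

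Of the 10 genes, 7 lie on chromosome 17 in the MHC (coordinates on mm10): Tapbp at 33915899-33929292, H2-K1 at 33996017-34000347, Psmb9 at 34181987-34187764, Tap1 at 34187553-34197225, Psmb8 at 34197721-34201454, Tap2 at 34203527-34216321 and H2-D1 at 35262730-35267499. B2m is at 122147686-122153083 on chromosome 2, Nlrc5 at 94434356-94527272 on chromosome 8 and Cd274 at 29367455-29388095 on chromosome 19. Tap1 and Psmb9 are read in opposite directions from a shared stretch of DNA, and their gene models overlap by 212 bp.

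Promoter sequences of 300 bases, from 250 bases before to 50 after a RefSeq start (GRCm38.p6), matched 8 of the 10 genes. H2-K1 had 2 entries, of which the first was used, and the outermost RefSeq starts of H2-K1 (34000619) and Cd274 (29362107) lie outside the windows shown. The 6 printed here are shown because they hold the regulatory letters of the heavy and light chains, of the promoter whose peak differed most between lists, of a promoter without a peak, and of Cd274. On their own strand, 5′ to 3′, they lie at chr17:34000298-34000597 (H2-K1, minus strand), chr17:35262844-35263143 (H2-D1), chr2:122147437-122147736 (B2m), chr17:33919228-33919527 (Tapbp), chr17:34187306-34187605 (Tap1) and chr19:29367188-29367487 (Cd274), all but the first on the plus strand. Capitals mark matches, on either strand, to GAAANNGAA (interferon response element type), TTCNNNGAA (gamma-activated site type), GGGNNTTCC and GGGNNTTTC (kappa B types), TGACG (part of the cyclic AMP response element) and CCAAT, a common promoter box.
H2-K1 promoter: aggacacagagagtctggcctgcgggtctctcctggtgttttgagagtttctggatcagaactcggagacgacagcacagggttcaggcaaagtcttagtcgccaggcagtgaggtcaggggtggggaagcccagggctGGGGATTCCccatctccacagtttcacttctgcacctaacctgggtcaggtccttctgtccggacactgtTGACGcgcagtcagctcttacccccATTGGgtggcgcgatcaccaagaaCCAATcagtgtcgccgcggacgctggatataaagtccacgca
H2-D1 promoter: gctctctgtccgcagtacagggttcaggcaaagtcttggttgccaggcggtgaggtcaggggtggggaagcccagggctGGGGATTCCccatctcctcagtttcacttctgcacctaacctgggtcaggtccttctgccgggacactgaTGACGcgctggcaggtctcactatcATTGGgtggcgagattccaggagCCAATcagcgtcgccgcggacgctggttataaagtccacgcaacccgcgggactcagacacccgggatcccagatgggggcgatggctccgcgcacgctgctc
B2m promoter: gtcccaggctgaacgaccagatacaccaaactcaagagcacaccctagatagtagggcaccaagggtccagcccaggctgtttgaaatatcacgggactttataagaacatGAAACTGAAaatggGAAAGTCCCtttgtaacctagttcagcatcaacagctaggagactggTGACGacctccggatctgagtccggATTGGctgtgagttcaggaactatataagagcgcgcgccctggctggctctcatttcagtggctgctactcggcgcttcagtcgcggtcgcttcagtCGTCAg
Tapbp promoter: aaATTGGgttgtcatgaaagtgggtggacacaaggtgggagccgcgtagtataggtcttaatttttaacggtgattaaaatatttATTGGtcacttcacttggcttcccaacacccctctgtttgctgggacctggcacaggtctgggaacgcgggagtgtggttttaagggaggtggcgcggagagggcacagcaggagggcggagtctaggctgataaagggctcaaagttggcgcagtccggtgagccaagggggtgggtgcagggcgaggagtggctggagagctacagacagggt
Tap1 promoter: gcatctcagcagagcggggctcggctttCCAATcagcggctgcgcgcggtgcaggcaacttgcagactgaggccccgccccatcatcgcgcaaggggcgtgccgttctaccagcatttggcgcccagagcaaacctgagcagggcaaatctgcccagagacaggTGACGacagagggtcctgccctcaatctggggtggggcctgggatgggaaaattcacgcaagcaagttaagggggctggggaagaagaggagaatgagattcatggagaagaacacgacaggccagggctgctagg
Cd274 promoter: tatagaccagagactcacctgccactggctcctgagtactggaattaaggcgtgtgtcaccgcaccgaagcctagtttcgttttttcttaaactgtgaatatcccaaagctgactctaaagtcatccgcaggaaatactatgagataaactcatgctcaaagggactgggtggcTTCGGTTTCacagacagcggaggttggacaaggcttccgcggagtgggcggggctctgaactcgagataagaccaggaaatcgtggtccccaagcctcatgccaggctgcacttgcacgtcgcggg

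The heavy chain promoters shared their letters. Over an aligned 240 bases, H2-K1 and H2-D1 were identical at 211 (87.9%), with the H2-D1 start lying further downstream. Both held 1 GGGNNTTCC match (first base at -111 in H2-K1 and -171 in H2-D1, counted from 1 at the start site), 1 TGACG (-41 and -101) and 2 CCAAT matches. Of all 32851 promoter windows in the RefSeq table, 5.82% held GGGNNTTCC, 20.8% TGACG and 37.4% CCAAT. The B2m window held GAAANNGAA at -139, a letter pattern found in 8.56% of promoters, and GGGNNTTTC at -125, found in 4.36%. Cd274 also held GAAANNGAA, at -76 on the opposite strand. Psmb8 held TTCNNNGAA at -97, which 8.30% of promoters held. The Tap1 window, 275 bases of which are also the Psmb9 window, had 1 TGACG and 1 CCAAT match, and Tapbp had 2 CCAAT matches and none of the others. No pattern was found in all 5 promoters with a listed peak and in none of the 3 without (Tap1, Psmb8 and Psmb9). A match of letters is not a measured binding site. The patterns are fixed, so related elements with other letters or spacing were not marked, and a missing match does not mean that none is there.

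The class I genes with a promoter peak were counted first, to ask which of them carried the mark in untreated and treated cells. In CK1750, 5 of the 10 genes had a promoter peak with DMSO and the same 5 with UNC0638: H2-D1, B2m, Tap2, Tapbp and Cd274. In Tnm2, 6 had one with DMSO, the same 5 and H2-K1, and 4 with UNC0638, where H2-K1 and Tapbp had none. H2-D1, B2m, Tap2 and Cd274 had a promoter peak in all 4 lists, as 39.3% of protein-coding genes did. Tap1, Psmb8, Psmb9 and Nlrc5 had none in any list, as 46.0% of protein-coding genes did. Over all protein-coding genes, 50% had a promoter peak in CK1750 DMSO, 49.1% in CK1750 UNC0638, 49.4% in Tnm2 DMSO and 41.3% in Tnm2 UNC0638, so the counts of the class I genes stood near the background. No peak means only that none reached the score of 50 at an unknown depth.

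**Figure D1:**
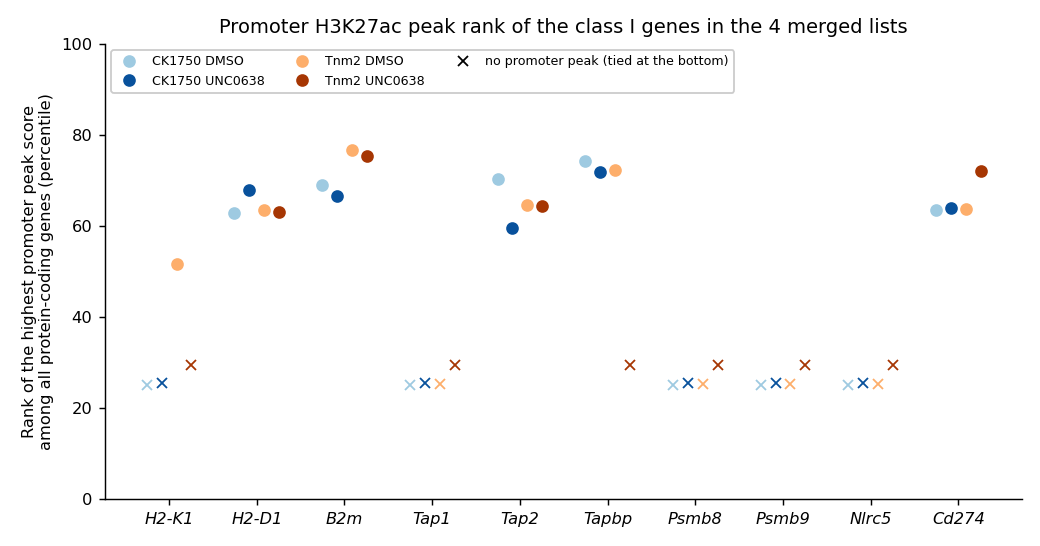
Gene-level rank (percentile among 21938 protein-coding genes) of the highest promoter peak score for each of the 10 class I genes, with 1 point per merged list and crosses for genes with no promoter peak. Genes with a peak sat between 51.7 (H2-K1 in Tnm2 DMSO) and 76.8 (B2m in Tnm2 DMSO), and Tap1, Psmb8, Psmb9 and Nlrc5 were at the tied bottom in every list.

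The class I genes with a peak lay between gene-level percentiles 51.7 and 76.8. Genes without a promoter peak fill the lower percentiles, so places among genes with a peak are also given. Of 10977 genes with a peak in CK1750 DMSO, Tapbp ranked 5646, Tap2 6518, B2m 6826, Cd274 7989 and H2-D1 8150 from the top. Of 10845 in Tnm2 DMSO, B2m ranked 5082, Tapbp 6060, Tap2 7782, Cd274 7944, H2-D1 7976 and H2-K1 10595. B2m, the light chain gene, had promoter scores of 344.73, 268.82, 431.68 and 155.59, which ranked it at percentiles 68.9, 66.6, 76.8 and 75.4. By this rank it stood higher in both Tnm2 lists than in both CK1750 lists. Among all peaks of its list, the B2m peak was at percentiles 69.5, 60.8, 79.1 and 60.8, and by that rank Tnm2 UNC0638 was not above the CK1750 lists. Its peak covered the start site in every list, and in Tnm2 DMSO the peak began at -918 bp from the start, against -110, -86 and -66 in CK1750 DMSO, CK1750 UNC0638 and Tnm2 UNC0638.

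H2-D1, the heavy chain gene with a peak throughout, scored 221.54, 292.3, 186.16 and 70.91, at percentiles 62.9, 67.8, 63.6 and 63.1. Its gene-level rank was highest in CK1750 UNC0638, and the other 3 lists lay within a narrow range. Among all peaks of its list, the H2-D1 peak was at percentiles 59.6, 62.9, 59.1 and 23.9, lowest in Tnm2 UNC0638. The peak began inside the gene model, at 145 and 155 bp after the first GENCODE start, in CK1750 DMSO and Tnm2 UNC0638. It reached back to -439 in CK1750 UNC0638, and in Tnm2 DMSO a separate peak with a score of 101.78 covered -380 to 159. The RefSeq start of H2-D1, at position 35263094, lies further downstream and was covered by a peak in every list.

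H2-K1, the other heavy chain gene, had a promoter peak in Tnm2 DMSO alone. It consisted of 2 narrow pieces, 43 to 471 and 495 to 907 bp after the first start, with scores of 56.93 and 51.4, just above the listing cutoff. The gene-level rank was 51.7, and the higher piece was at percentile 10.4 of all peaks of its list. In CK1750 DMSO the nearest peaks to H2-K1 lay around H2-K2, annotated as a transcribed pseudogene, at scores of 151.15 and 55.24, the nearer of them 15.0 kb from an H2-K1 start. With UNC0638 the nearest peak lay 23.7 kb away in both lines, in the stretch that holds the starts of Ring1 and H2-Ke6.

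Class I genes have close relatives, and reads can be placed at the wrong copy. No promoter peak of the 10 genes had a copy elsewhere that covered 80% of it at 95% identity, but 4 of the 5 H2-D1 peaks aligned to H2-K1 at 88.7 to 90.2% identity, and the H2-K1 pieces aligned to H2-Q4 at 93.0% and to H2-D1 at 90.9%. The labels give reads of 75 bases and the study's methods paired reads of 38 bases, so windows of both lengths within 1 kb of the first start were examined. Of 78 windows of 75 bases, 71 of H2-K1 (91.0%), 77 of H2-D1 (98.7%) and 68 of Tap2 (87.2%), the lowest share, were placed back at their origin, and the median over protein-coding genes was 100%. Of 79 windows of 38 bases, 62 of H2-K1 (78.5%), 72 of H2-D1 (91.1%) and 69 of Tap2 (87.3%) occurred once in the genome, against 75 (96.2%), 78 (100%) and 73 (93.6%) of the 75-base windows. The study's methods scale its signal tracks by uniquely alignable reads, but how reads with several placements entered peak calling is not given in the sources used here, and its part in the heavy chain values was not tested.

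**Figure D2:**
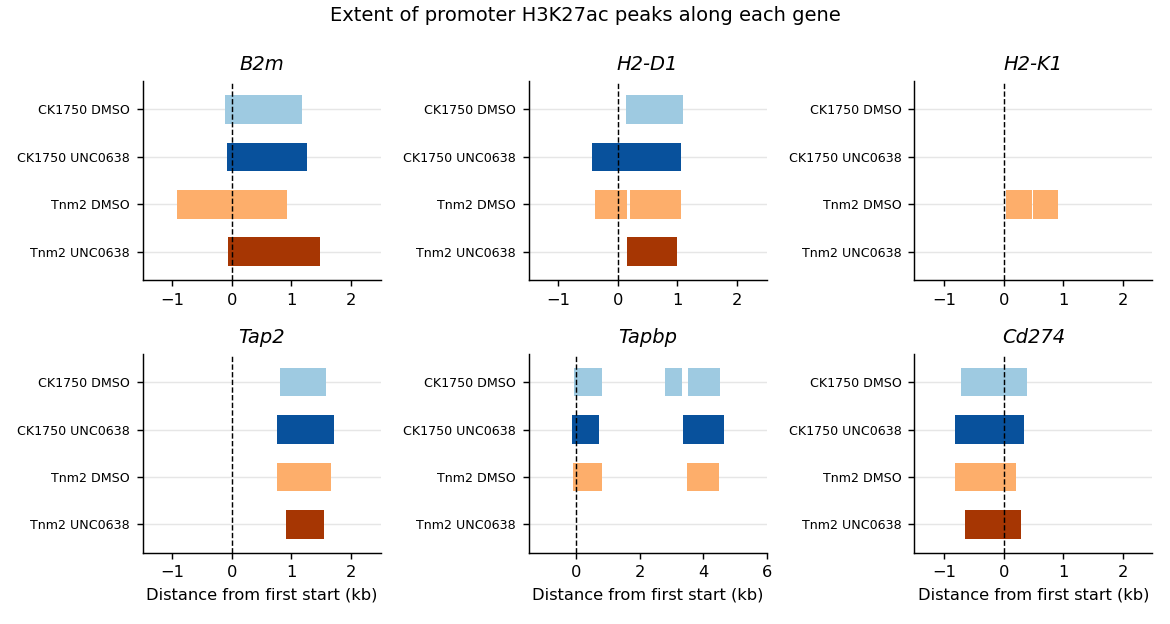
Bars show the extent of each promoter H3K27ac peak in kb from the gene's first GENCODE start site (dashed line, transcription to the right), with 1 row per merged list, for the 6 class I genes that had a promoter peak in any list. Tapbp had peaks in 3 lists and none in Tnm2 UNC0638, H2-K1 had pieces in Tnm2 DMSO alone, and the Tap2 peak lay beyond the first start in every list.

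The genes of the peptide transporter and the inducible proteasome sit side by side, and a single peak was listed for the 4 of them. Psmb9, Tap1, Psmb8 and Tap2 span 34.3 kb, and the peak at Tap2 was the only one within 50 kb of any of these genes in each list. It scored 380.89, 155.59, 197.34 and 78.41, at gene-level percentiles 70.3, 59.5, 64.5 and 64.3. Its gene-level rank was highest in CK1750 DMSO and lowest in CK1750 UNC0638, with the Tnm2 lists between them and close together. Among all peaks of a list it was at percentiles 71.6, 45.8, 60.9 and 29.6, again highest in CK1750 DMSO but lowest in Tnm2 UNC0638.

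The Tap2 peak lay inside the gene model, from 807 to 1587, 761 to 1709, 763 to 1662 and 916 to 1548 bp after the first GENCODE start. It covered 2 later start sites of Tap2 in the first 3 lists and 1 in Tnm2 UNC0638. The outermost RefSeq start of Tap2, at position 34204479, lay inside it in all 4 lists. Merged over the lists, the peak also overlapped Gm20496, which has a start within 2.5 kb, so it cannot be assigned to Tap2 alone. The nearest Tap1 start was 11.2 to 11.4 kb from this peak, the nearest Psmb9 start 16.5 to 16.7 kb, and the nearest Psmb8 start 4.93 to 5.09 kb. All 79 of the 38-base windows around Tap1 and around Psmb8 (100%) occurred once in the genome, and 77 of 79 around Psmb9 (97.5%).

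**Figure D3:**
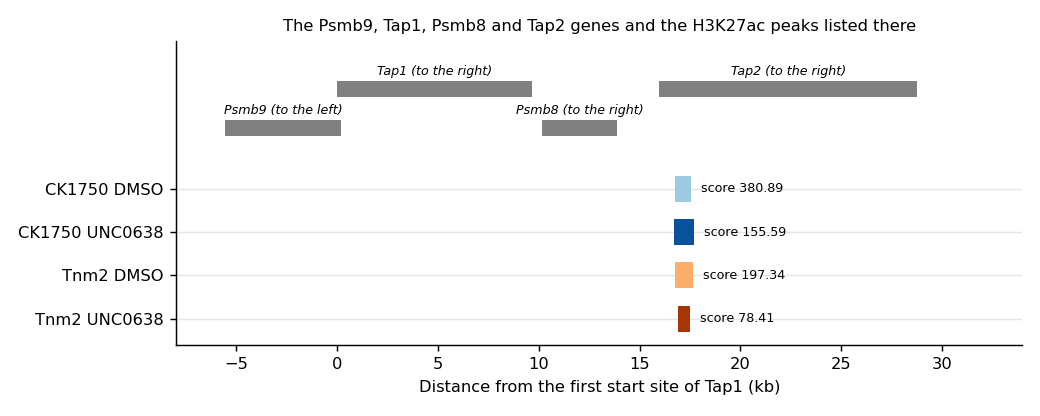
Map of the Psmb9, Tap1, Psmb8 and Tap2 gene bodies (grey, with the direction of transcription) and the H3K27ac peaks of the 4 merged lists, in kb from the first start site of Tap1. The 1 peak in each list lay in Tap2, with scores of 380.89, 155.59, 197.34 and 78.41, and none lay at the start shared by Tap1 and Psmb9.

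Tapbp, the tapasin gene, differed most between lists. Its highest promoter score was 492.73 in CK1750 DMSO, 382.24 in CK1750 UNC0638 and 326.56 in Tnm2 DMSO, at gene-level percentiles 74.3, 71.8 and 72.4 and at 76.3, 69.1 and 73.5 among all peaks, and no promoter peak was listed in Tnm2 UNC0638. Tapbp has 9 annotated start sites, and no peak lay within 2.5 kb of any of them in Tnm2 UNC0638. The peak over the first start, which also covered the start of Zbtb22, scored 376.08, 155.59 and 166.08 in the other 3 lists. The higher peak lay downstream, within 3354 to 4644 bp of the first start, at the outermost RefSeq start. Merged over the lists, it also overlapped Gm19412, which has a start within 2.5 kb, so neither peak can be assigned to Tapbp alone. The nearest peak in Tnm2 UNC0638 was 3.81 kb from a Tapbp start, at Rgl2, with a score of 57.83.

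Tapbp was singled out because it lacked a peak in Tnm2 UNC0638, so the shares below do not test that loss. Each share counts all genes that scored at least as high as Tapbp, which is the lowest of its set. Of the 6060 protein-coding genes that scored at least 326.56 in Tnm2 DMSO, Tapbp among them, 47 (0.776%) had no promoter peak in Tnm2 UNC0638. Against CK1750 UNC0638, 151 of 6194 genes (2.44%) that scored at least as high as Tapbp did there had none in Tnm2 UNC0638. The peaks at the flanking genes Daxx and Rgl2 were listed in all 4 groups. Daxx scored 1150.6, 950.27, 744.2 and 317.99, and Rgl2 166.61, 268.03, 192.84 and 57.83. Among all peaks, Daxx was at percentiles 88.8 and 82.0 in Tnm2 DMSO and Tnm2 UNC0638, and Rgl2 at 60.2 and 10.1. The threshold for H2-K1 was lower. Of the 10596 genes that scored at least 56.93 in Tnm2 DMSO, 1707 (16.1%) had no promoter peak in Tnm2 UNC0638. Shares at different thresholds cannot be set against each other.

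Nlrc5, the transactivator, had no peak at any of its 8 start sites. The nearest peak to any annotated Nlrc5 start lay 7.48 to 7.79 kb away, near the start of Cpne2, with scores of 352.36, 287.43, 238.88 and 50.12. This peak lay beyond the end of the gene (94527272), within 94532543-94533881, and the distance is from a late start. The first start is far from it, at 94434356. All 79 windows of 38 bases around Nlrc5 (100%) occurred once in the genome.

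Cd274, the PD-L1 gene, scored 234.3, 220.95, 187.17 and 127.51, at percentiles 63.6, 63.9, 63.8 and 72.1. By this rank the first 3 values lay close together and Tnm2 UNC0638 stood above them, although its score was the lowest of the 4. Among all peaks of its list the Cd274 peak was at percentiles 60.9, 55.7, 59.3 and 53.1, lowest in Tnm2 UNC0638, so the direction depends on the rank used. The peak covered the start site in each list and also a start of Plgrkt, the neighbouring gene, so the peak cannot be assigned to Cd274 alone.

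Differences between lists were then set beside those of all genes. With UNC0638 in CK1750, none of the 5 class I promoters lost its peak and none gained one, against 4.85% of genes whose peak was absent with UNC0638 and 3.08% whose peak was absent with DMSO. Ranks moved by 4.95 percentile points for H2-D1, 0.273 for Cd274, -2.28 for B2m, -2.50 for Tapbp and -10.7 for Tap2. The drop of Tap2 was the single move of 10 points or more, and 2.04% of genes with a peak in both lists had a lower value. Over genes with a promoter peak in either list, 5.97% rose and 7.17% dropped by 10 points or more. The median difference was -2.28 for the 5 class I genes and -0.0228 for all genes. When genes were ranked by bases covered in place of the score, 0 class I genes dropped by 10 points in CK1750.

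With UNC0638 in Tnm2, 2 of the 6 class I promoters, H2-K1 and Tapbp, had no peak, where 17.7% of genes lost theirs, and none gained a peak, where 1.45% of genes did. The gene-level ranks of H2-D1 (-0.568), B2m (-1.44) and Tap2 (-0.237) stayed within 2 points. Cd274 was higher by 8.35 points, with 91.6% of genes with a peak in both lists below it. Among all peaks of a list, all 4 were at a lower percentile with UNC0638. H2-D1 went from percentile 59.1 to 23.9, B2m from 79.1 to 60.8, Tap2 from 60.9 to 29.6 and Cd274 from 59.3 to 53.1. These lists held 30641 and 18794 peaks, and no such shift over all genes was computed. By place from the top of the list, Cd274 moved up, from 12468 to 8813. B2m (6402 to 7363), Tap2 (11990 to 13229) and H2-D1 (12538 to 14298) moved down. By gene-level rank, Tapbp dropped by 43.0 points and H2-K1 dropped by 22.3, both to the tied bottom. Among all genes, 20.4% dropped and 5.79% rose by 10 points or more. The 2237 genes that dropped include the 1919 that lost their peak. The medians were -1 for the 6 class I genes and -0.492 for all genes. Tnm2 UNC0638 was also the shortest list. With as many peaks in each list as the shortest holds, Tapbp still had its peak in the other 3 lists, and H2-K1 had none in any.

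Between the lines with DMSO, H2-K1 alone differed in presence, with a peak in Tnm2. This was 1 of the 6 genes with a peak in Tnm2 DMSO, and 6.34% of all genes with one there had none in CK1750 DMSO. The reverse, 0 of 5, stood beside 7.47% of genes. B2m ranked 7.95 points higher in Tnm2 and Tap2 ranked lower there (-5.76), and H2-D1, Cd274 and Tapbp differed by 0.793, 0.201 and -1.89. H2-K1, at 26.7 points, was the single gene past 10 points, which restates its presence in 1 list. Over all genes, 12.3% were higher and 13.6% lower in Tnm2, those with a peak in 1 list included. The medians were 0.497 for the class I genes and -0.00912 for all genes, and the first ran from -0.36 to 8.74 under other settings.

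Between the lines with UNC0638, Tapbp alone differed in presence. It was 1 of the 5 class I genes with a peak in CK1750 UNC0638, and 18.7% of all genes with one there had none in Tnm2 UNC0638. The reverse, 0 of 4, stood beside 3.21% of genes. By gene-level rank, B2m, Cd274 and Tap2 stood higher in Tnm2 by 8.79, 8.28 and 4.75 points, and H2-D1 differed by -4.73. Among all peaks of a list, B2m was at percentile 60.8 in both. By that rank Cd274 (55.7 and 53.1), Tap2 (45.8 and 29.6) and H2-D1 (62.9 and 23.9) were lower in Tnm2, so the direction depends on the rank. Tapbp, at -42.4, was the single gene past 10 points, which restates its presence in 1 list. Over all genes, 10.6% were higher and 24% lower in Tnm2, those with a peak in 1 list included. The medians were 4.75 for the 5 class I genes and -0.667 for all genes, and the class I median ran from -0.111 (5 kb windows) to 10.1 (ranked among genes with a peak in all lists). The 4 comparisons share lists, and the higher gene-level rank of B2m in Tnm2 with each treatment rests on 2 lists per line and no replicates.

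**Figure D4:**
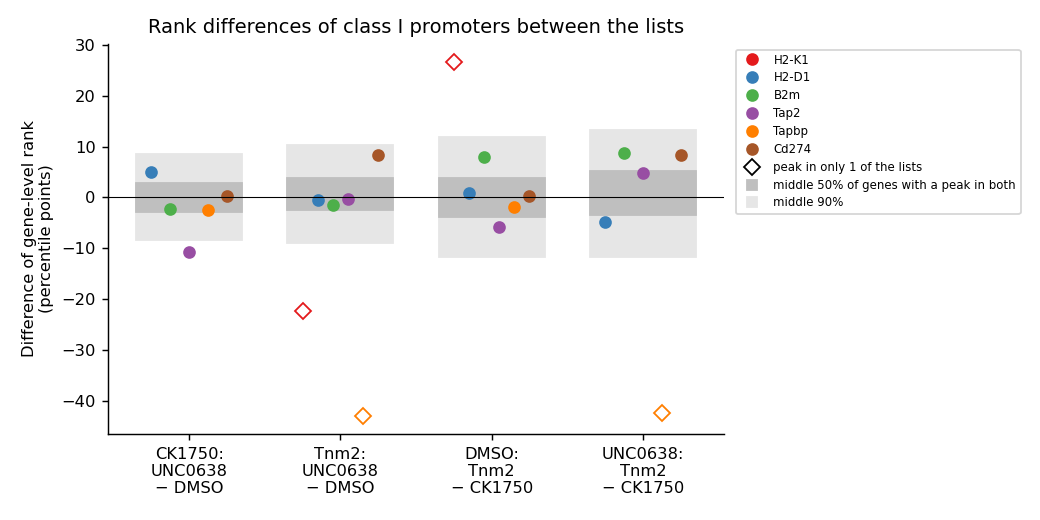
Difference in gene-level rank (percentile points) of class I promoters in the 4 comparisons, with filled points for genes with a peak in both lists and open diamonds for genes with a peak in 1 of them; dark and light bands hold the middle 50% and 90% of protein-coding genes with a peak in both lists. Among filled points Tap2 in CK1750 (-10.7) lay outside the light band, and the open diamonds of Tapbp lay at -43.0 and -42.4.

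The surroundings of the class I genes were examined next, in windows of 50 kb on each side joined into 6 windows of 843 kb in all. They held 29, 21, 31 and 17 peaks, which covered 32.5, 30.2, 31.3 and 19.9 kb. In CK1750, 9 of 29 DMSO peaks had no overlapping UNC0638 peak (31.0%, Wilson 95% interval 17.3 to 49.2%, counting error only), and the share over the whole list, 21.8%, lay inside the interval. The highest score among the 9 was 151.15, at H2-K2. The count was 4 when peaks scoring under 100 were left out, 5 when both lists were cut to the same number of peaks, and 3 near a start site, a choice made after seeing the data. One UNC0638 peak was gained, 1 of 21 (4.76%, 0.846 to 22.7%), beside 19.6% of the whole list, a weak peak beyond Cd274 with a score of 51.85. In Tnm2, 14 of 31 DMSO peaks had no UNC0638 partner (45.2%, 29.2 to 62.2%), beside 43.1% of the list, and the highest of them was the Tapbp peak. The count was 5 when both lists were cut to the same number of peaks and 8 near a start site. The gained share was 1 of 17 (5.88%, 1.05 to 27%), beside 8.81%, a peak downstream of Nlrc5 with a score of 65.42.

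Merged over the lists, the windows held 40 regions. Of these, 9 lay at starts of the class I genes and 4 of the 9 were in all lists, those of H2-D1, B2m, Tap2 and Cd274. Starts of other genes held 18 regions, 10 of them in all lists, such as the regions at Daxx, Rps18 and Vps52, Ring1, Rxrb and Slc39a7, Ddx39b, Spg11 and Herpud1. The remaining 13 regions lay away from any start site, and none of the 13 was in all lists while 9 were in 1 list alone. A distal region downstream of H2-D1 was listed in 3 groups, at 109.42, 112.3 and 61.74 in CK1750 DMSO, Tnm2 DMSO and Tnm2 UNC0638.

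Promoter composition was set beside presence of the mark. The CpG observed-to-expected ratio was 0.562 for H2-K1, 0.653 for H2-D1, 0.682 for B2m, 0.562 for Tapbp and 0.722 for Cd274, and 0.549 for Tap1, 0.6 for Psmb9 and 0.523 for Psmb8. The range of the 3 promoters without a peak (0.523 to 0.6) overlapped that of the 5 with one (0.562 to 0.722). The median was 0.804 over 6782 promoters of genes with a peak in all lists and 0.25 over 7284 promoters of genes with none, and the class I promoters lay between these medians.

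Other genes linked to the class I pathway were counted by the same rule. Of 31 such genes, a hand-made list of proteasome subunits, chaperones, peptidases, interferon receptors and transcription factors, some of them general factors such as Rela and Creb1, 31, 31, 30 and 26 had a promoter peak, and 25 had one in all lists. Their median gene-level percentiles were 85.8, 85.6, 85.8 and 84.0. Absent from Tnm2 UNC0638 alone were Psme1 and Psme2, which encode the interferon-inducible proteasome activator, Irf1, an interferon-responsive transcription factor, Calr, the chaperone calreticulin, and Psmb6, the constitutive counterpart of Psmb9. Their Tnm2 DMSO scores were 262.02, 200.89, 141.19, 101.52 and 63.45. Of all protein-coding genes with a promoter peak in Tnm2 DMSO, 17.7% had none in Tnm2 UNC0638, so such absence was common. Psmb10, the third inducible catalytic subunit, had a peak in all lists, at 193.88, 181.94, 151.5 and 52.03.

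Of 14 other class I heavy chain genes, 3, 3, 4 and 3 had a promoter peak and 9 had none in any list. H2-T23, the mouse Qa-1 gene, had one in all lists (715.89, 539.48, 239.91 and 118.98). H2-T22 lacked one in Tnm2 UNC0638. H2-M3 scored 197.27 in CK1750 UNC0638 and 66.35 in Tnm2 DMSO and was absent from the other lists. Cd1d1 was absent from CK1750 UNC0638 alone, and H2-Q10 was listed in Tnm2 UNC0638 alone, at 62.54.

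Class II genes, which serve professional antigen-presenting cells, had few listed promoter peaks. Cd74, Ciita, H2-Aa, H2-Ab1, H2-Eb1, H2-DMb1, H2-DMb2, H2-Oa and H2-Ob had no promoter peak in any list. These were 9 of the 10 class II genes, beside 46.0% of all protein-coding genes and 9 of the 14 other heavy chain genes. H2-DMa was assigned one at 3100 in every list, a peak that also covered a start of Brd2. Among 6 checkpoint genes beside Cd274, Cd80 and Cd276 had promoter peaks in all lists, Cmtm6, whose product stabilises PD-L1, in all but Tnm2 UNC0638 (239.32, 247.0 and 115.1), and Pdcd1lg2, Cd86 and Vtcn1 in none.

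**Figure D5:**
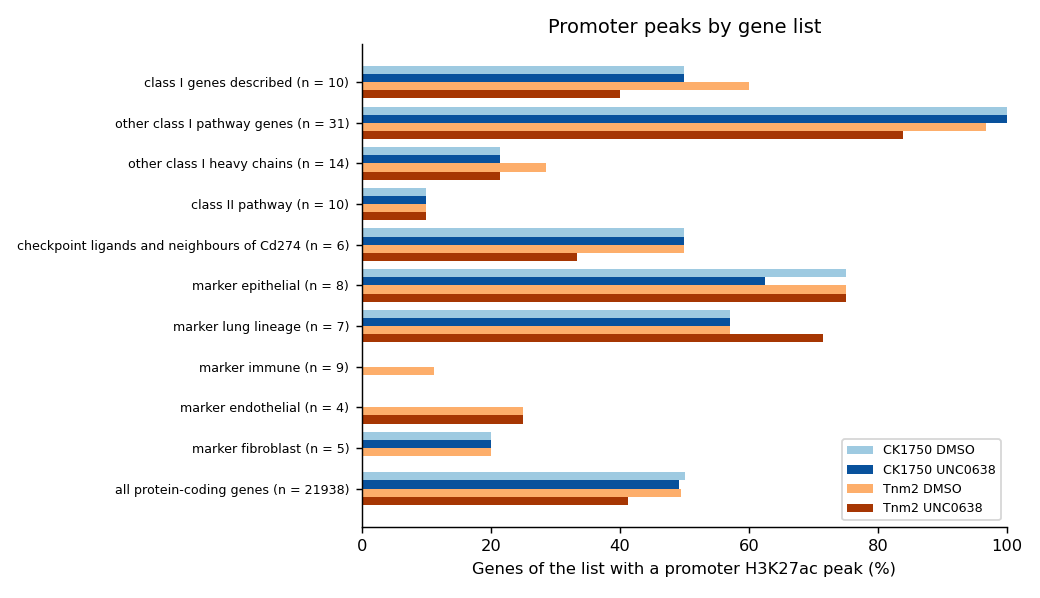
Share of genes with a promoter H3K27ac peak (%) in each gene list and in each of the 4 merged lists, with all protein-coding genes at the bottom. The 10 class I genes lay near all protein-coding genes, while 26 to 31 of the 31 other class I pathway genes and 1 of the 10 class II genes had a peak in each list.

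Markers of the labelled tissue and of other cells were read in the same way. Of 8 epithelial markers, 6, 5, 6 and 6 had promoter peaks, with Krt8, Krt18, Krt19, Cdh1 and Elf3 in all lists, Krt7 absent from CK1750 UNC0638, and Epcam and Cldn4 in none. Of 7 lung lineage markers, 4, 4, 4 and 5 did, with Nkx2-1, Foxa1, Foxa2 and Sftpc in all lists, Sftpb in Tnm2 UNC0638 alone, and Napsa and Sftpa1 in none. Of 9 immune markers, 0, 0, 1 and 0 had a peak (Laptm5, at 66.28), and Ptprc, Cd52, Csf1r, Cd68, Lyz2, Itgam, Cd3e and Cd79a had none. Endothelial markers gave Pecam1 alone, at 116.3 and 230.74 in the Tnm2 lists, without Cdh5, Kdr or Tek. Col1a1 was the fibroblast marker with a peak, in all but Tnm2 UNC0638 (102.58, 51.89 and 96.78), without Pdgfra, Pdgfrb, Dcn or Lum.

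The protein-coding genes whose 4 gene-level percentiles lay closest to the medians of the 10 class I genes (43.9, 42.5, 57.7 and 29.4) were Adssl1, Kantr and Mycbp, with summed differences of 16.0, 16.2 and 17.3 points over the 4 lists. The medians fall between marked and unmarked genes, so no single class I gene had this profile.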

How the data were processed

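H3K27ac ChIP-seq was done by the authors in CK1750 and Tnm2 cells with DMSO or UNC0638, using antibody ab4729 per the labels. The labels give reads of 75 bases, and the study's methods give paired reads of 38 bases. According to the study's methods and the submitters' processing notes, bowtie2 placed the reads on mm10, and MACS 1.4.2 listed peaks with P below 1e-05. The deposited score of a peak is the authors' P value on a -10 log10 scale, so 50 is the lowest. Pooling was inferred from 1 merged list per group; the libraries in each list, the control and the depth are not given in the sources used here. H3K9me2 and input samples were not used here.

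Starts were converted to 1-based positions, and 0 peaks ended beyond a chromosome. Genes came from GENCODE release M 21. The promoter rule (2.5 kb), the gene window (50 kb), ranks, lost or gained peaks (no overlap of 1 bp) and Wilson 95% intervals were as given above. A rank difference of 10 percentile points counted as a move, which a gene with a peak in only 1 of the compared lists always passed. The 10 genes and the gene lists were chosen with earlier results of these data known. All class I genes, markers and class II genes were named, and of the other lists those whose presence differed between lists, some all-list genes being added after their values were seen. A gene of these lists is not reported here by name. Peaks and 75-base windows (step 25, mapping quality 10 or more) were aligned to the chromosomes of GRCm38.p6 with minimap2 2.31. Windows of 75 and 38 bases were also counted as exact matches on both strands, an alternative chosen after seeing the data. Alternatives were a score of at least 100, equal numbers of peaks, other windows, start sites, overlap rules and rank measures. Scripts were tested on simulated data. Python 3.11.15, numpy 2.4.6, pandas 2.3.3, scipy 1.17.1, biopython 1.88 and matplotlib 3.10.9 were used.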

Additional observations from a re-analysis of the deposited data

Results flagged for a closer look

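The rank of the H2-D1 promoter moved in opposite directions with UNC0638, by 4.95 percentile points in CK1750 and by -0.568 in Tnm2. The difference between the lines was not tested, and each value rests on 1 list per group.

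The length covered by peaks within 50 kb of Tap1, Tap2, Psmb8 and Psmb9, which for all 4 genes is the width of the single Tap2 peak, changed by 168 bp in CK1750 and by -267 bp in Tnm2. The covered length within 50 kb of Cd274 changed by 1030 bp in CK1750 and by -1871 bp in Tnm2. The peak at the Cd274 start was 1101, 1155, 1028 and 929 bp wide in the 4 lists. The other peaks in this window, at Plgrkt or away from any start, all scored under 100. These differences in covered length were not tested either.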

How the results depend on the processing

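Of 148 alternative values for 28 counts, 113 were within 1.5 times the reported value and 35 were not. The median rank change of the class I genes ran from -2.56 to -0.711 in CK1750, -5.1 to -0.568 in Tnm2, -0.36 to 8.74 between the DMSO lists and -0.111 to 10.1 between the UNC0638 lists, and 3 of its 20 alternatives, all between lines, had the other sign. Requiring a score of at least 100 left 2 class I genes with a promoter peak in Tnm2 UNC0638 (B2m and Cd274), 0 present only in Tnm2 DMSO between the lines, 3 present only in CK1750 UNC0638 between the lines, 10 peaks in the Tnm2 UNC0638 windows, 4 lost peaks in CK1750 and 0 gained in Tnm2. With equal numbers of peaks, 1 class I gene, Tapbp, was present only in Tnm2 DMSO against Tnm2 UNC0638 and 1 dropped in rank, 0 differed in presence or rose between the DMSO lists, and 5 peaks were lost in each line. With 5 kb around start sites, 2 class I genes dropped in rank in CK1750 and 2 between the UNC0638 lists, and Tapbp was assigned a peak in Tnm2 UNC0638. In that setting Psmb8 was also assigned the Tap2 peak, in all lists but Tnm2 UNC0638, where it lay 5.09 kb away. That single peak then counted for both genes, so these drops are not of separate peaks. Ranked by covered bases, 1 rose and 0 dropped in CK1750, 3 rose between the DMSO lists and 1 between the UNC0638 lists. Ranked among genes with a peak in all lists, 1 rose and 0 dropped in Tnm2, 1 was lower between the DMSO lists and 2 were higher between the UNC0638 lists. Windows of 10 kb held 12, 11, 16 and 7 peaks, and windows of 100 kb held 46, 36, 51 and 30. A reciprocal overlap of 50% gave 3 gained peaks in Tnm2. With only peaks within 2.5 kb of any start site, chosen after seeing the data, lost peaks were 3 and 8 and gained peaks 0 and 0 in CK1750 and Tnm2. Apart from what follows from fewer peaks or wider windows, the cause was not tested. No paired analysis was possible because each group has 1 merged list, and no replicate could be left out for the same reason. Depth is unknown, so a weak peak such as that of H2-K1 can be missing from a list through depth.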
